A study of Mus musculus with 31 samples.

Results

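Expression of 10 genes of the lipid-associated macrophage programme, Apoe, Trem2, Gpnmb, Spp1, Cd36, Abca1, Abcg1, Fabp5, Lgals3 and Cd9, was measured by bulk RNA-seq in 31 libraries of mouse breast tumours. The genes were chosen by name, and each symbol matched 1 of the 39017 rows of the count table. Libraries came from 2 tumour models, titled 4T1 and MT, each in 4 arms. Tumours received poly I:C with phenformin (the combination), poly I:C with PBS (poly I:C), saline with phenformin (phenformin) or saline with PBS (control). Phenformin, a biguanide, blocks mitochondrial complex I. Poly I:C mimics viral double-stranded RNA and is sensed by TLR3. Every group held 4 libraries except 4T1 phenformin, which held 3. All tumours are labelled wild type, and dose, timing and mouse age are not given in the sources used here. The tags contradict the titles. Libraries titled 4T1 are tagged as FVB mice and the cell line MT4788, and libraries titled MT as BALBc mice and the cell line 4T1-537. Each model rests on the 1 cell line named, groups are called by their titles, and statements about a model hold for the libraries so titled.

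Lipid-associated macrophages are cells that take up lipid from dying cells and lipoproteins, store it in droplets and lysosomes, and return cholesterol to carriers outside the cell. They were described in obese fat tissue and are also found in tumours. TREM2, with its adaptor TYROBP, senses lipids and apolipoproteins at the surface, CD36 takes up fatty acids and oxidised lipoprotein, APOE carries lipid, and ABCA1 and ABCG1 pump cholesterol out. The nuclear receptors LXR and PPARG control much of this gene set. Several members are not specific to macrophages: tumour cells can make osteopontin (Spp1), galectin-3 (Lgals3), FABP5 and CD9, and fat cells and capillaries carry CD36. In bulk tumour RNA, fewer cells of a type and less RNA per cell cannot be told apart.

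Sequence upstream of 4 members is printed because these genes gave the largest responses or sense lipid, and because each held a match to a motif of a factor family linked to macrophages or lipid. The stretches run from 250 bases before to 20 bases after the RefSeq start (GRCm38.p6), 5′ to 3′ on the gene's own strand, with the matches in capitals.
Trem2, chr17:48346151-48346420, plus strand: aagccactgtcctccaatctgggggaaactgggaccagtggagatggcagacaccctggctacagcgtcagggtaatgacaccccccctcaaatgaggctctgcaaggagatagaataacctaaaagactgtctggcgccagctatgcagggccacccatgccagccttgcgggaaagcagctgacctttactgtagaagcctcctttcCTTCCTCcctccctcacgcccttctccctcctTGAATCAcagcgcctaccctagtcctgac
Gpnmb, chr6:49036268-49036537, plus strand: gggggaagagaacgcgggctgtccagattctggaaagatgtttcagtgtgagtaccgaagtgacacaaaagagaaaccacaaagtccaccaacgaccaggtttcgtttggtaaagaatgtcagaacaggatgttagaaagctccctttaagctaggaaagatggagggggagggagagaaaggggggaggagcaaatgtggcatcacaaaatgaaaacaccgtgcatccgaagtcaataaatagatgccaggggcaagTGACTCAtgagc
Cd36, chr5:17835877-17836146, minus strand: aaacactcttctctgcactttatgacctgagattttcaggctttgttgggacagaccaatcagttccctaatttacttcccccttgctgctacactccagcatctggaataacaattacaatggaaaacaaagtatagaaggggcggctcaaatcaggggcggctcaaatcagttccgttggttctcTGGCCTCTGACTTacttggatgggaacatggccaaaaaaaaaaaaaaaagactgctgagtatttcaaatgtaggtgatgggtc
Abca1, chr4:53159876-53160145, minus strand: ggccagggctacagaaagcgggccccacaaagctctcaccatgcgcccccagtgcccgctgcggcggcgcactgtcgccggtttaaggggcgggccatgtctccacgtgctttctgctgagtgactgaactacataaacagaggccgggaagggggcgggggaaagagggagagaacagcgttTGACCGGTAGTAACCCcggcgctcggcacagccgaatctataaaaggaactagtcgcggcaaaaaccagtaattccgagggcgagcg
The capitals in Gpnmb (TGACTCA) and the second run in Trem2 (TGAATCA) match the AP-1 search pattern TGANTCA, in which N stood for any base. They lie from 9 to 15 bases after the Gpnmb start and at -9 to -3 in Trem2. The first run in Trem2, at -41 to -35, is the PU.1-type motif GAGGAAG on the opposite strand, which Spp1 also held at -113 to -107. The run in Cd36, at -63 to -51, matches a direct repeat of AGGTCA with 1 spacer base, the spacing PPAR receptors prefer, on the opposite strand with 2 mismatches. This Cd36 window lies inside the annotated gene, whose 5′ end on the minus strand is at 17888801. Which Cd36 start these tumours used was not tested. The run in Abca1, at -67 to -52, matches a direct repeat of AGGTCA with 4 spacer bases, the spacing LXR receptors prefer, on the opposite strand with 3 mismatches. Both strands were searched, and no 2 of the matches shown overlap. Windows of the same length with a match made up 7.23% (AP-1), 11.6% (PU.1-type), 3.47% (PPAR spacing, up to 2 mismatches) and 19.8% (LXR spacing, up to 3 mismatches) of 32851 promoters. Of the 10 members 8 had a promoter in the table, and Fabp5 and Abcg1 did not.

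Total counts ran from 12160110 to 19849915 per library. Levels are given as CPM, the deposited counts scaled by TMM-adjusted library size. H2-Ea-ps, an MHC class II gene silent in part of the inbred strains, measured 222 to 1011 CPM in libraries titled 4T1 and 5.42 to 50.9 CPM in those titled MT. The defining macrophage genes Adgre1, Csf1r and C1qa were above 0 in all libraries, and none of the 14 macrophage markers was at 0 in any. MT libraries fall into unlike kinds. Sox10, a neural crest and basal mammary factor, stood at 33.5 to 218 CPM in MT control replicates 1 to 3 and MT phenformin replicates 1 to 3, and at 0.671 to 3.06 CPM in the other 10 MT libraries. The basal keratin Krt5 showed the opposite, with 21.4 to 37.5 CPM in 5 of those 6 libraries, 1611 CPM in MT phenformin replicate 3, and 330 to 2452 CPM in the other 10. MT combination replicate 1 also stood apart, with 8738 CPM of the antibody light chain Igkc and the lowest Krt5 of the 10. Muscle actin, Acta1, was above 10 CPM in 2 libraries each of 4T1 combination and 4T1 poly I:C and in 1 of 4T1 phenformin, but in no 4T1 control.

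All 10 members passed the filter on low counts in every fit. With poly I:C alone, 6 members rose and 1 fell in MT tumours (edgeR quasi-likelihood test, Benjamini-Hochberg adjusted p under 0.05), where 19.6% of all genes were called, 8.52% higher and 11.1% lower. In 4T1 tumours given poly I:C, 1 member fell and none rose, against 6.32% of all genes called, 3.06% lower. The combination raised 4 members and lowered none in MT tumours, against 6.14% of all genes called, 2.81% higher. That count was 8 without MT control replicate 4, 1 (Gpnmb) without MT combination replicate 1 and 0 in each of the other 6 fits without 1 library. Without MT control replicate 4, every control left was a library with high Sox10. The share of all genes called in these refits is not given here, so their counts say nothing particular to the members. No member was called for the combination in 4T1 tumours, where no gene was called at all (0%), and DESeq2 called no member. There 2 members, Apoe and Lgals3, were at an unadjusted p under 0.05, beside 11.9% of all genes. Over the 10 members the median log2 fold change was 1.20 in MT tumours and -0.19 in 4T1 tumours given poly I:C, beside a median of 0.01 over all genes tested in each model. MT poly I:C and MT combination were set against the same 4 controls, as were the 4T1 arms, and groups of 4 give p-values that measure only the spread between these libraries.

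**Figure D1:**
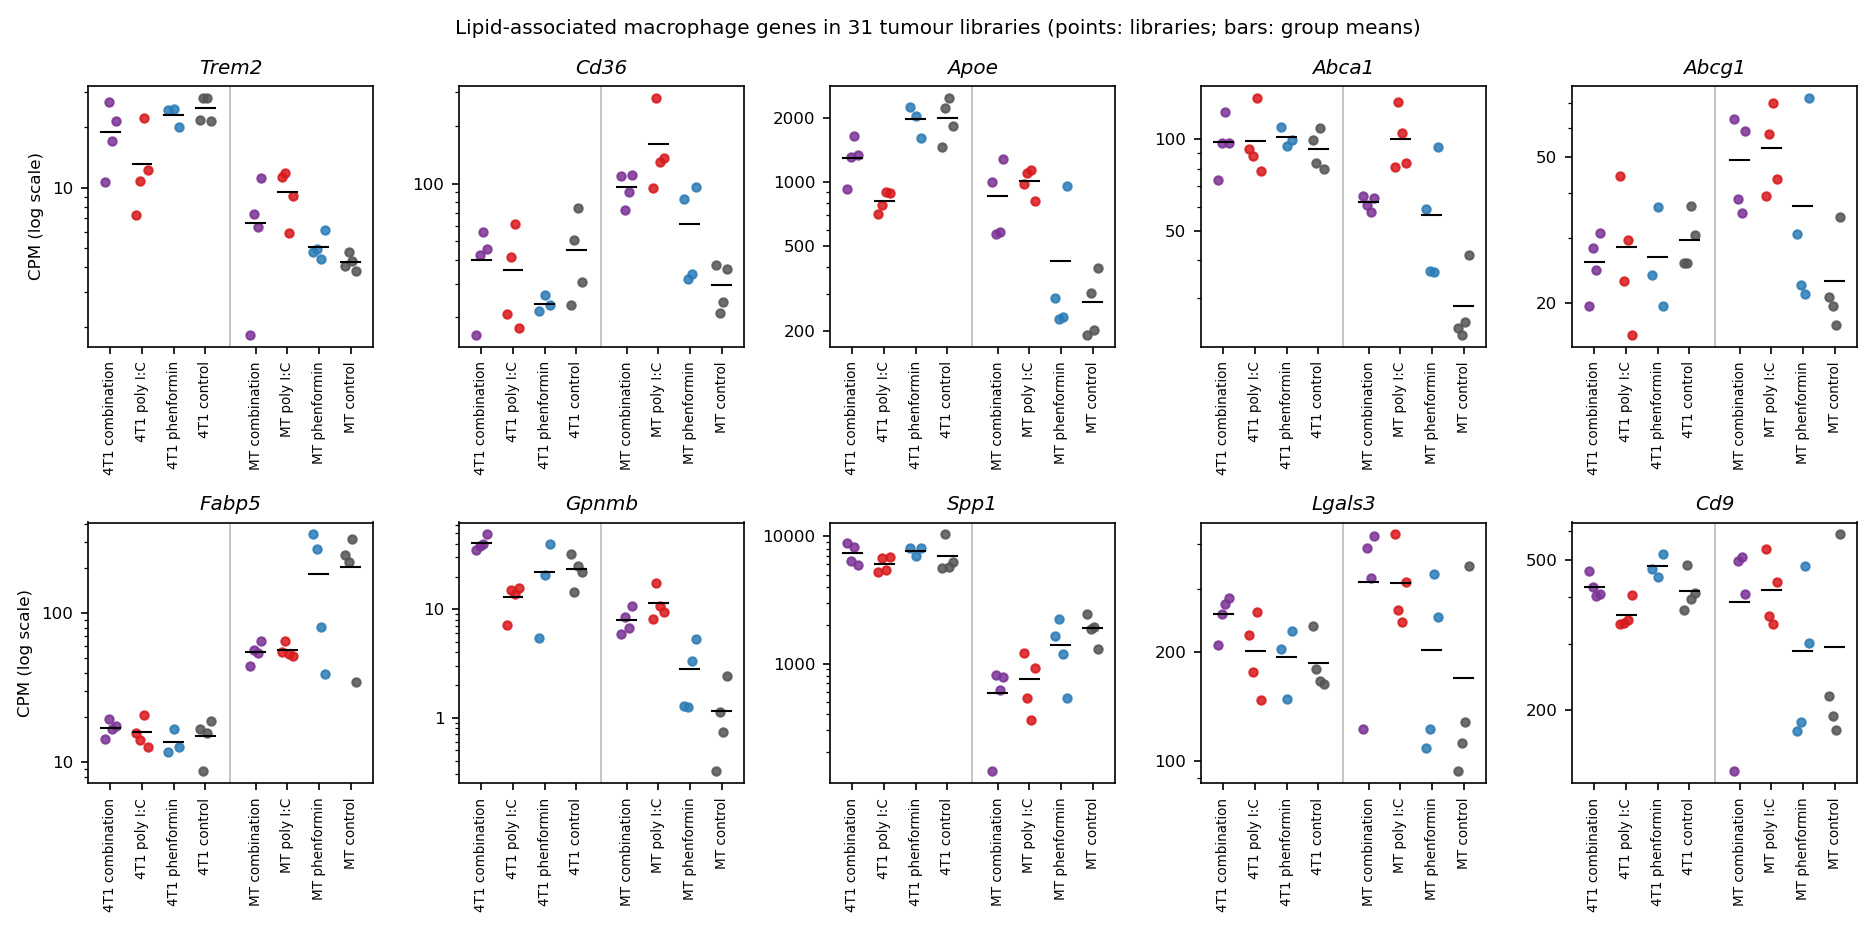
CPM of each member (log axis, a panel per gene) in the 8 groups, with 1 point per library and a bar at the group mean. Apoe of the 4 MT poly I:C libraries sits at 814 to 1141 CPM, above the MT controls at 192 to 396 CPM, while Apoe of the 4 4T1 poly I:C libraries sits at 709 to 897 CPM, below the 4T1 controls at 1463 to 2497 CPM.

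Trem2 is the lipid-sensing receptor of the programme (ENSMUSG00000023992, GRCm38 chromosome 17, 48346401 to 48354147). Its level was 1.83, 7.35, 6.35 and 11.1 CPM in MT combination libraries, 11.3, 11.8, 5.94 and 9.08 CPM in MT poly I:C libraries, 4.74, 4.91, 4.38 and 6.10 CPM in MT phenformin libraries and 4.04, 4.78, 4.29 and 3.82 CPM in MT controls. All poly I:C libraries lay above all controls, while the combination spread from below to well above them. With poly I:C the log2 fold change was 1.19 ± 0.38 (SE, edgeR adjusted p = 0.0431), a call kept in 1 of the 8 fits that left out a library (adjusted p 0.0453 to 0.117). Trem2 of 4T1 tumours was at 10.7, 26.7, 17.0 and 21.5 CPM with the combination, 7.25, 10.8, 22.2 and 12.3 CPM with poly I:C, 24.4, 24.6 and 20.1 CPM with phenformin and 21.8, 28.1, 28.1 and 21.5 CPM in controls. Poly I:C replicate 3 overlapped the controls and the other 3 lay below them. The 4T1 log2 fold change of -0.90 ± 0.30 for poly I:C missed the threshold (adjusted p = 0.0905) and was called without poly I:C replicate 3 (adjusted p = 0.0271) and by DESeq2 (adjusted p = 0.0349).

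Cd36, the fatty acid and oxidised lipoprotein receptor (ENSMUSG00000002944, chromosome 5, 17781690 to 17888801), stood at 110, 72.8, 90.4 and 111 CPM in MT combination libraries, 95.5, 281, 130 and 136 CPM in MT poly I:C libraries, 83.1, 31.6, 33.7 and 96.6 CPM in MT phenformin libraries and 37.6, 21.0, 24.1 and 35.9 CPM in MT controls. Every combination and poly I:C library was above every control, and the phenformin libraries fell into 2 high and 2 low ones. The log2 fold change was 1.70 ± 0.40 for the combination (adjusted p = 0.0345) and 2.46 ± 0.41 for poly I:C (adjusted p = 0.00255), both by edgeR's quasi-likelihood test. The poly I:C call held in all 8 fits without 1 library, and the combination call in 1 of 8. MT poly I:C replicate 2, the highest for Cd36, also had the highest Adipoq, a fat cell gene, of the MT libraries (92.2 CPM). Adipoq ran from 6.67 to 92.2 CPM in MT poly I:C libraries and from 0.478 to 11.7 CPM in MT controls, and the summed level of 7 fat cell markers from 50.9 to 656 CPM and from 6.30 to 110 CPM. Of those 7 markers 1 was called higher and none lower with poly I:C in MT tumours, beside 8.52% and 11.1% of all genes. The part of these markers in the Cd36 result was not tested. In 4T1 tumours Cd36 overlapped between all arms, at 16.2 to 55.6 CPM with the combination, 17.6 to 61.7 CPM with poly I:C, 21.5 to 26.2 CPM with phenformin and 23.3 to 75.0 CPM in controls.

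Apoe, the lipid carrier (ENSMUSG00000002985, chromosome 7, 19696109 to 19699188), was the 1 member called in opposite directions in the 2 models. In MT tumours it measured 1004, 573, 584 and 1293 CPM with the combination, 986, 1111, 1141 and 814 CPM with poly I:C, 286, 227, 233 and 966 CPM with phenformin and 192, 302, 203 and 396 CPM in controls. Combination and poly I:C libraries were all above the controls, and 1 phenformin library, replicate 4, reached their level. Log2 fold changes in MT were 1.67 ± 0.46 for the combination (adjusted p = 0.0471) and 1.91 ± 0.46 for poly I:C (edgeR, adjusted p = 0.0125). Leaving out single libraries kept the poly I:C call in 8 of 8 fits and the combination call in 1 of 8.

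The same gene in 4T1 tumours stood at 927, 1314, 1646 and 1339 CPM with the combination, 709, 781, 897 and 895 CPM with poly I:C, 2273, 2052 and 1623 CPM with phenformin and 1463, 2227, 2497 and 1851 CPM in controls. Poly I:C libraries were below every control and every combination library. Apoe fell by 1.27 ± 0.19 on the log2 scale with poly I:C (adjusted p = 0.00538), a call that held in 8 of 8 fits without 1 library. It was lost without the 5 libraries with Acta1 above 10 CPM, 2 of them poly I:C, at a log2 fold change of -1.31 (adjusted p = 0.147). Between the combination and poly I:C the difference of 0.66 ± 0.19 missed edgeR's threshold (adjusted p = 0.0945) and passed that of DESeq2 (adjusted p = 0.0179).

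The cholesterol pumps both rose with poly I:C in MT tumours. Abca1, which loads cholesterol onto lipid-poor apolipoproteins (ENSMUSG00000015243, chromosome 4, 53030787 to 53159895), measured 65.3, 61.0, 57.6 and 64.2 CPM with the combination, 80.8, 133, 105 and 83.4 CPM with poly I:C, 58.8, 36.8, 36.5 and 94.1 CPM with phenformin and 23.9, 22.7, 25.1 and 41.7 CPM in controls. The combination group was tight, above every control and below every poly I:C library. Abca1 rose by 1.14 ± 0.29 with the combination (adjusted p = 0.0423, kept in 1 of 8 fits without 1 library) and by 1.85 ± 0.30 with poly I:C (edgeR, adjusted p = 0.00209, kept in 8 of 8). Abcg1, which passes cholesterol to HDL (ENSMUSG00000024030, chromosome 17, 31057675 to 31117988), measured 63.5, 38.4, 35.1 and 58.7 CPM with the combination, 39.2, 57.8, 70.3 and 43.6 CPM with poly I:C, 30.9, 22.4, 21.2 and 72.4 CPM with phenformin and 20.8, 19.6, 17.5 and 34.3 CPM in controls. It rose by 1.21 ± 0.38 with poly I:C (adjusted p = 0.0385), which held in 2 of 8 fits without 1 library, and its value of 1.09 ± 0.38 for the combination missed the threshold (adjusted p = 0.0879). In 4T1 tumours neither pump was called in any comparison, with Abca1 between 73.7 and 137 CPM and Abcg1 between 16.4 and 44.4 CPM over the 15 libraries.

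Fabp5, a fatty acid chaperone of the cytosol (ENSMUSG00000027533, chromosome 3, 10012548 to 10016607), was the 1 member lower with poly I:C in MT tumours. It measured 44.5, 56.4, 53.8 and 65.3 CPM with the combination, 54.7, 65.5, 53.5 and 51.8 CPM with poly I:C, 339, 272, 80.7 and 39.3 CPM with phenformin and 248, 222, 316 and 34.5 CPM in controls. MT control replicate 4 lay below every poly I:C library, and the high values were those of libraries with high Sox10. The call was marginal, at -1.85 ± 0.62 (edgeR, adjusted p = 0.0499), and was kept in 1 of 8 fits without 1 library. Without the 6 libraries with Sox10 above 10 CPM the log2 fold change was 0.74 (adjusted p = 0.238), a value that rests on the 1 control left. In 4T1 tumours Fabp5 was between 8.68 and 20.8 CPM in all libraries and no arm was called.

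Fabp5 counts carry a limit of their own. The annotation holds 5 processed pseudogenes that match its transcript at 93.6% to 98.3% identity, of which Gm6166 had 77752 counts in all, and Fabp5 held 21.6% to 33.4% of the counts summed over it and these copies. The authors' counting could split reads between them, so the level of Fabp5 is uncertain. The sum followed the same division of the MT libraries, at 162 to 222 CPM with the combination, 183 to 220 CPM with poly I:C, 118 to 1111 CPM with phenformin and 142 to 1207 CPM in controls.

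Gpnmb, a glycoprotein of lysosomes and the cell surface that rises in lipid-laden macrophages (ENSMUSG00000029816, chromosome 6, 49036546 to 49070929), had the largest fold changes of the 10 members in MT tumours. Its level there was low, at 5.85, 8.46, 6.64 and 10.7 CPM with the combination, 8.13, 17.3, 10.7 and 9.47 CPM with poly I:C, 1.27, 1.26, 3.30 and 5.36 CPM with phenformin and 0.319, 1.12, 0.737 and 2.44 CPM in controls. All combination libraries were above all phenformin and control libraries. Log2 fold changes were 2.80 ± 0.59 for the combination (adjusted p = 0.0256) and 3.34 ± 0.60 for poly I:C (edgeR, adjusted p = 0.00334). The poly I:C call held in 8 of 8 fits without 1 library, and the combination call in 2 of 8.

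In 4T1 tumours Gpnmb differed most between the arms given poly I:C. It was at 35.5, 38.6, 39.8 and 49.0 CPM with the combination, 7.13, 15.1, 13.7 and 15.6 CPM with poly I:C, 5.38, 20.7 and 40.3 CPM with phenformin and 32.5, 14.5, 25.0 and 22.2 CPM in controls. Every combination library lay above every poly I:C and control library, and phenformin libraries spanned nearly the whole range. The combination minus poly I:C value was 1.65 ± 0.43 (edgeR, adjusted p = 0.0803), which missed the threshold with 0.246% of all genes called. It passed without poly I:C replicate 4 (adjusted p = 0.0436) and by DESeq2 (adjusted p = 0.00395). Beside the combination, the macrophage markers of 4T1 tumours summed to 1678 to 2929 CPM, against 1292 to 1875 CPM with poly I:C. Relative to the mean log2 level of those markers, Gpnmb stood at -1.36 ± 0.31 with the combination, -2.43 ± 0.38 with poly I:C and -2.44 ± 0.63 in controls (log2, SD, n = 4 each).

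Spp1, which encodes the secreted phosphoprotein osteopontin (ENSMUSG00000029304, chromosome 5, 104435118 to 104441050), had no call within either model. MT libraries measured 142, 810, 621 and 780 CPM with the combination, 1209, 531, 357 and 925 CPM with poly I:C, 1653, 2253, 1197 and 535 CPM with phenformin and 2460, 1876, 1944 and 1302 CPM in controls. Controls were above every combination and every poly I:C library. The log2 fold changes were -1.69 ± 0.53 for the combination (adjusted p = 0.0664) and -1.32 ± 0.52 for poly I:C (edgeR, adjusted p = 0.0873), and DESeq2 called both (adjusted p = 0.0136 and 0.0411). In 4T1 tumours Spp1 was the most abundant member, at 5986 to 8845 CPM with the combination, 5212 to 6812 CPM with poly I:C, 7057 to 8079 CPM with phenformin and 5617 to 10353 CPM in controls, with all arms overlapping the controls. Spp1 overlaps the unconfirmed transcript Gm42793 on the same strand over 309 exon bases, and Gm42793 is not in the count table.

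Lgals3, the glycan-binding galectin-3 (ENSMUSG00000050335, chromosome 14, 47367751 to 47386160), and Cd9, a tetraspanin of plasma membrane and vesicles (ENSMUSG00000030342, chromosome 6, 125460266 to 125494791), were called in no comparison by edgeR. Lgals3 in MT tumours was at 123, 389, 321 and 420 CPM with the combination, 425, 263, 243 and 313 CPM with poly I:C, 109, 123, 330 and 250 CPM with phenformin and 93.6, 112, 128 and 348 CPM in controls. Cd9 was at 137, 498, 511 and 406 CPM with the combination, 537, 356, 339 and 438 CPM with poly I:C, 175, 186, 484 and 302 CPM with phenformin and 218, 192, 177 and 587 CPM in controls. Both genes were low in the 5 libraries with Sox10 above 100 CPM and in MT combination replicate 1, and high in MT control replicate 4. Without that control Lgals3 passed the threshold for poly I:C (1.50, adjusted p = 0.0201) and for the combination (1.50, adjusted p = 0.0252), while Cd9 did not (adjusted p = 0.0594 and 0.0886). In 4T1 tumours Lgals3 ran from 148 to 283 CPM and Cd9 from 338 to 521 CPM over all libraries, and neither was called. A processed pseudogene, Cd9-ps, matches Cd9 at 90.7% identity (4300 counts in all), and the antisense gene Gm26728 overlaps 218 of its exon bases. The libraries are strand-specific per the labels, but the strand setting of the counting is not given in the sources used here.

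**Figure D2:**
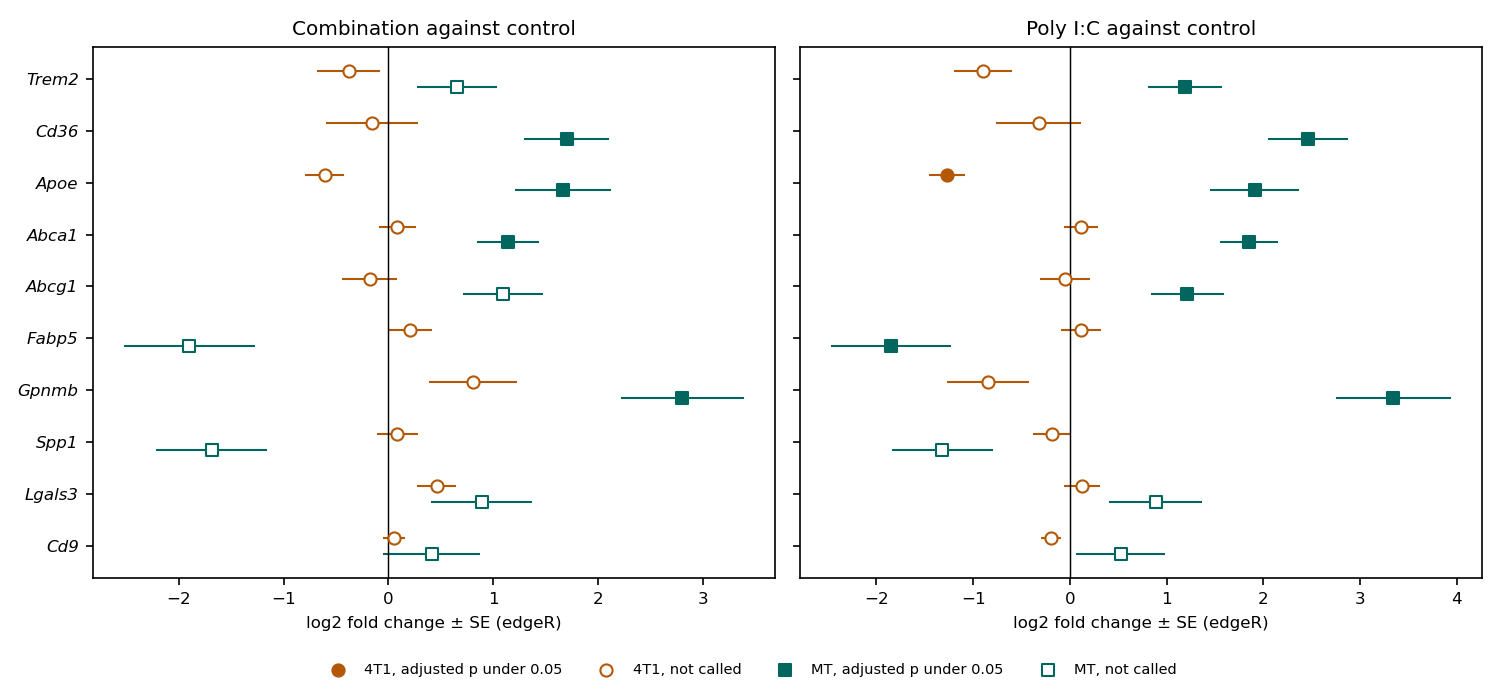
Log2 fold change ± SE (edgeR) of each member for the combination (left) and poly I:C (right) against control, in 4T1 (circles) and MT (squares), with filled symbols for an adjusted p under 0.05. With poly I:C, 6 filled MT squares lie right of 0 and 1, Fabp5, lies left, while the 1 filled 4T1 circle, Apoe, lies left at -1.27.

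Macrophage markers also differed between arms in both models. Their summed level was 1687 to 3446 CPM in MT combination libraries, 2333 to 3531 CPM in MT poly I:C libraries, 877 to 2181 CPM in MT phenformin libraries and 733 to 1035 CPM in MT controls. Of the 14 markers, 13 rose and none fell in MT tumours with poly I:C, and 8 rose with the combination. Of all genes, 8.52% and 2.81% were called higher in these comparisons. In 4T1 tumours the sum was 1678 to 2929 CPM with the combination, 1292 to 1875 CPM with poly I:C, 2995 to 4173 CPM with phenformin and 2560 to 3929 CPM in controls. Here 7 of 14 markers fell and none rose with poly I:C, beside 3.06% of all genes called lower. Among the markers that fell were Csf1r (-0.94, edgeR, adjusted p = 0.0178) and C1qa (-1.12, adjusted p = 0.00686). Of the members, 1 was called lower there and 9 were not called. With the mean log2 CPM of the 14 markers as a covariate no member was called for poly I:C in either model, and no gene at all. In that fit Apoe was at -0.58 in 4T1 tumours (adjusted p = 0.145) and Trem2 at -1.25 in MT tumours (adjusted p = 0.98). The marker level differs between the arms themselves, so arm and marker level cannot be told apart there.

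Set against the markers within each library, members differed in what was left. Trem2 stood at -3.55 ± 0.36 relative to the mean log2 marker level in MT poly I:C libraries and at -3.07 ± 0.12 in MT controls, and at -2.46 ± 0.38 and -2.32 ± 0.09 in 4T1 poly I:C libraries and 4T1 controls (log2, SD, n = 4 each). Between poly I:C and control, its distance to the markers changed less than its level did. With the MT combination the distance was -3.72 ± 0.60, a change from the controls about as large as that of its level (log2 fold change 0.65) and opposite in sign. Gpnmb stood at -3.31 ± 0.32 in MT poly I:C libraries and -5.12 ± 0.99 in MT controls, so its mean was higher relative to the markers as well. The low control mean came from replicates 1 to 3, the controls with high Sox10, at -6.19, -4.98 and -5.46. MT control replicate 4, with low Sox10, was at -3.84, close to the poly I:C libraries at -3.70 to -2.92. Spp1 was lower relative to the markers with poly I:C in MT tumours, at 2.63 ± 0.84 against 5.67 ± 0.45 in controls. Abca1 of 4T1 tumours, which was at a like level in all arms, stood at 0.53 ± 0.35 with poly I:C and -0.42 ± 0.24 in controls. These relative levels are descriptions with no test.

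**Figure D3:**
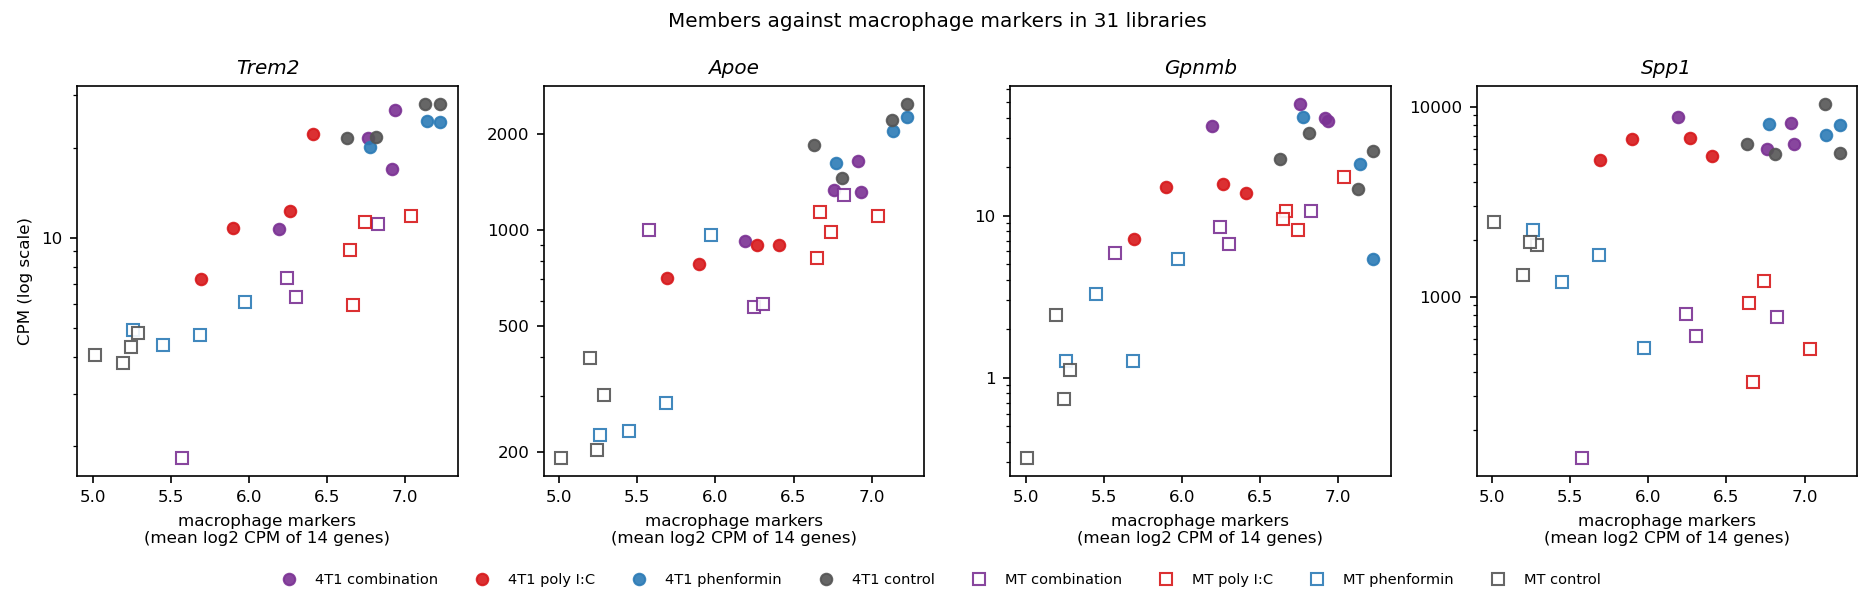
CPM of Trem2, Apoe, Gpnmb and Spp1 (log axis) against the mean log2 CPM of 14 macrophage markers, 1 point per library, filled circles for 4T1 and open squares for MT. Apoe is mostly higher where the markers are higher, with MT combination replicate 1 (1004 CPM at a marker level of 5.57) as an exception, whereas Spp1 of the 15 4T1 libraries stays between 5212 and 10353 CPM at every marker level.

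Markers of other cell types were also called with poly I:C in MT tumours, where 8.52% of all genes were called higher and 11.1% lower. Endothelial markers were called higher for 6 of 6 genes, fibroblast markers for 4 of 8, monocyte markers for 4 of 5 and neutrophil markers for 5 of 7 tested. The summed level of 8 neutrophil markers did not follow those calls, at 175 to 725 CPM with the combination, 124 to 379 CPM with poly I:C and 19.9 to 2465 CPM in MT controls (medians 376, 260 and 938 CPM). Osteoclast-like markers were higher for 3 of 5, and 1 of 5 neural crest-like markers was lower. With the combination in MT tumours 4 of 5 monocyte, 6 of 7 neutrophil, 2 of 5 osteoclast-like and 1 of 6 endothelial markers were higher. There 1 of 5 neural crest-like markers was lower, beside 6.14% of all genes called, 2.81% higher. The part of these markers in the members' results was not tested. In 4T1 tumours given poly I:C, 2 of 8 fibroblast, 2 of 7 tested neutrophil, 2 of 5 osteoclast-like and 1 of 5 skeletal muscle markers were higher. There 1 of 5 monocyte markers was lower, beside 6.32% of all genes called, 3.06% lower. Single genes called in a list are no result about that cell type.

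The division of the MT libraries by Sox10 ran through several members. Over the 6 libraries with Sox10 above 10 CPM, Fabp5 was at 80.7 to 339 CPM, against 34.5 to 65.5 CPM in the other 10. Apoe was at 192 to 302 CPM in those 6 and 396 to 1293 CPM in the other 10, and Abcg1 at 17.5 to 30.9 CPM and 34.3 to 72.4 CPM. These libraries were divided by their Sox10 level, so the ranges are a description with no test. Sox10 was above 10 CPM in 3 of 4 controls and in no poly I:C or combination library, so this division and the arms largely coincide. With the 6 libraries left out 1 control remained, its spread taken from the other groups, and no member was called for poly I:C or the combination. These missing calls rest on that single control and say nothing about stability. Poly I:C values were then 2.25 for Gpnmb (adjusted p = 0.173), 2.20 for Cd36 (0.203), 1.38 for Apoe (0.279), 1.34 for Trem2 (0.545) and 1.30 for Abca1 (0.162), each against the single control left. With the log2 Krt5 to Sox10 ratio in the model, Cd36 (2.21, adjusted p = 0.0288), Gpnmb (2.18, 0.0227) and Abca1 (1.35, 0.0259) remained called for poly I:C, and Apoe (1.04, 0.230) did not.

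**Figure D4:**
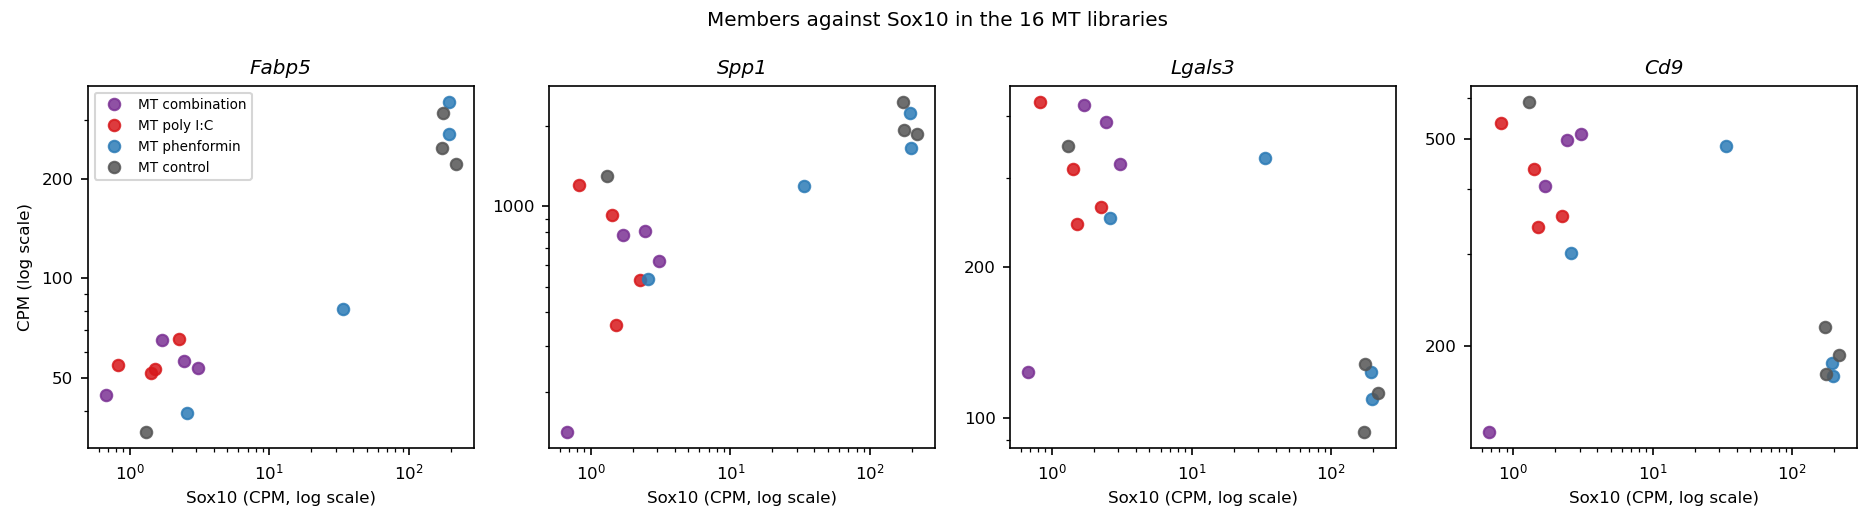
CPM of Fabp5, Spp1, Lgals3 and Cd9 against Sox10 in the 16 MT libraries (both axes log), 1 point per library, coloured by arm. Fabp5 is highest in the 5 libraries with the highest Sox10, where Lgals3 and Cd9 are low, and MT control replicate 4, at 34.5 CPM of Fabp5, lies with the combination and poly I:C libraries and phenformin replicate 4.

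Phenformin alone gave no call for any member in either model, and no gene was called in either comparison (0%). At an unadjusted p under 0.05 there were 0 members in 4T1 and 3 in MT tumours, beside 10% and 6.07% of all genes. The 3 in MT tumours were Cd36 (1.06 ± 0.40), Abca1 (1.02 ± 0.29) and Gpnmb (1.33 ± 0.57), each with an adjusted p of 0.811, and DESeq2 called none. MT phenformin replicate 4 held the highest value of its group for 6 members, Trem2, Cd36, Apoe, Abca1, Abcg1 and Gpnmb. Its Sox10 was 2.59 CPM, against 33.5 to 195 CPM in phenformin replicates 1 to 3. Macrophage markers summed to 2181 CPM in this library, against 877 to 1179 CPM in those replicates, and T cell markers to 655 CPM, against 38.9 to 111 CPM. The part of these differences in the phenformin values was not tested. Against poly I:C alone the combination had no call among members in either model. There 3 members in 4T1 tumours were at an unadjusted p under 0.05, beside 19.6% of all genes, and DESeq2 called 2. For MT tumours it was 1 member, beside 6.03% of all genes, and DESeq2 called none. Against phenformin alone no member was called in either model, by edgeR or by DESeq2. At an unadjusted p under 0.05 there was 1 member in 4T1 tumours, beside 2174 of the 17445 genes tested. There were 4 members in MT tumours, beside 2354 of the 17857 genes tested. All genes called by edgeR were 0% for the combination against poly I:C in MT tumours, 0% against phenformin in 4T1 and 0.106% against phenformin in MT tumours. The interaction, the log2 response to the combination beyond the sum of both single responses, passed for no member and for no gene in either model (0%), which says nothing particular to the members. DESeq2 called 1, Abca1 in MT tumours, at -1.72 (adjusted p = 0.0423), where edgeR gave -1.73 ± 0.41 (adjusted p = 0.385). Unadjusted, 2 members in 4T1 (Apoe and Gpnmb) and 3 in MT tumours (Cd36, Abca1 and Gpnmb) were under 0.05. Of all genes, 9.33% and 9.91% were.

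Between the models, control tumours differed in 6 members (edgeR joint fit), in a comparison where 51.9% of all genes were called, 26.7% higher and 25.2% lower. Gpnmb was higher in 4T1 than MT controls by 4.39 ± 0.58, Apoe by 2.88 ± 0.38, Trem2 by 2.55 ± 0.37, Spp1 by 1.89 ± 0.42 and Abca1 by 1.71 ± 0.25 on the log2 scale (adjusted p 7.68e-07 to 0.00059). Fabp5 was lower in 4T1 controls, at -3.78 ± 0.53 (adjusted p = 1.97e-06). None of the 6 overlapped between 4T1 and MT controls, and Cd36, Abcg1, Lgals3 and Cd9 were not called (adjusted p 0.24 to 0.785). The share of all genes without such overlap was not computed, so this separation says nothing particular to the members. Of the 14 macrophage markers 13 were also higher in 4T1 controls. Model, strain and any handling that went with it cannot be told apart.

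The response to poly I:C differed between models for 5 members, with 11.1% of all genes called, 5.42% in the direction of these members. As 4T1 minus MT, the difference of log2 responses was -4.21 ± 0.74 for Gpnmb (adjusted p = 0.00076), -3.18 ± 0.51 for Apoe (0.000317), -2.78 ± 0.63 for Cd36 (0.00586), -2.09 ± 0.50 for Trem2 (0.00932) and -1.74 ± 0.35 for Abca1 (edgeR, 0.00268). For 13 of 14 macrophage markers the difference was called in the same direction. Counts from refits are given without the share of all genes called in them, so they say nothing particular to the members. The count was 5 or 6 in 15 of 16 fits without 1 library and 9 without MT control replicate 4. It was 1 without the libraries with Sox10 (MT) or Acta1 (4T1) above 10 CPM. For the combination the difference was called for Apoe, at -2.28 ± 0.51 (adjusted p = 0.0154), with 4.56% of all genes called (2.29% in this direction), and for 7 members without MT control replicate 4. For phenformin no member and no gene (0%) was called, and DESeq2 called no member. At an unadjusted p under 0.05 there were 2 members, beside 7.35% of all genes.

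The wider gene lists of lipid handling, which hold none of the 10 members, are described by counts, beside a median log2 fold change over all genes of 0.01 for poly I:C in each model and 0.02 for the combination in MT tumours. Among all genes, poly I:C had 8.52% called higher and 11.1% lower in MT tumours and 6.32% called in either direction in 4T1 tumours, and the combination had 2.81% called higher in MT tumours. The lists were chosen with results known, and their counts were not tested against these shares. Some genes, such as Plin2, Nceh1 and Atp6v0d2, stand in more than 1 list, and Mertk and Cd68 are also macrophage markers. Of 28 other genes reported in lipid-associated macrophages, 13 rose and none fell in MT tumours given poly I:C, with a median of 0.78. Clec7a, the receptor dectin-1, averaged 141 ± 33.9 CPM with poly I:C and 23.6 ± 4.97 CPM in controls (SD, n = 4 each), a log2 fold change of 2.60 ± 0.41 (adjusted p = 0.00197). Itgax, which encodes CD11c, rose by 1.79 ± 0.28 and Nceh1, a cholesterol ester hydrolase, by 0.94 ± 0.17. With the combination 5 of the 28 rose in MT tumours, among them Clec7a (2.01 ± 0.40), Itgax (1.18 ± 0.28) and the proton pump subunit Atp6v0d2 (1.99 ± 0.50). In 4T1 tumours given poly I:C 1 rose, Plin2, a lipid droplet coat (0.63 ± 0.16), and 3 fell, Syngr1 (-0.84 ± 0.20), Itgax (-0.67 ± 0.14) and the lysosomal protease Ctsz (-0.36 ± 0.07), with a median of -0.18. Ctsz was also the 1 gene of this list called between the 4T1 combination and 4T1 poly I:C (0.37 ± 0.07, adjusted p = 0.0463).

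Partners of TREM2 were called in part in MT tumours. Of 16 adaptors, kinases, sheddases and relatives, 6 rose with poly I:C (median 1.18) and 4 with the combination (median 1.43), and none fell. The signalling adaptor Tyrobp rose by 1.25 ± 0.34 with the combination and 1.43 with poly I:C (adjusted p = 0.0115), and Trem1, the inflammatory relative, by 1.73 ± 0.42 and 1.94 ± 0.42. Ms4a7 and Ms4a6d, of a family of membrane proteins linked to TREM2 in human genetics, rose by 1.98 ± 0.30 and 1.73 ± 0.32 with poly I:C, and Ms4a7 by 1.48 ± 0.30 with the combination. Both sheddases of TREM2, Adam10 (0.52) and Adam17 (0.43), were called with poly I:C. None of the 16 was called in any 4T1 comparison. Of these, 5 differed in their poly I:C response between models, Tyrobp at -1.99 (adjusted p = 0.00317).

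For cholesterol, 4 of 18 other LXR receptors, partners and targets rose and 1 fell with poly I:C in MT tumours (median 0.34). The receptor Nr1h3 averaged 22.9 ± 9.60 CPM with the combination, 23.1 ± 9.35 CPM with poly I:C and 7.19 ± 2.41 CPM in MT controls (SD, n = 4 each), and rose by 1.68 ± 0.41 and 1.70 ± 0.41. Apoc2, a lipoprotein lipase activator in the Apoe gene cluster, rose by 1.26 ± 0.28 and 1.76 ± 0.29. The phospholipid transfer protein Pltp rose by 1.65 ± 0.39 with poly I:C in MT tumours (adjusted p = 0.0114) and fell by 0.79 ± 0.21 in 4T1 tumours (adjusted p = 0.0408). In 4T1 tumours the receptor partner Rxra fell by 0.59 ± 0.11 with poly I:C, and no list member rose (median -0.26). Cd5l, an LXR target of macrophages, rose by 2.98 ± 0.81 with the combination in MT tumours, at 2.86 ± 3.25 CPM against 0.35 ± 0.218 CPM in controls.

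Of 19 genes of cholesterol uptake, storage and trafficking, 6 rose and 1 fell with poly I:C in MT tumours. Examples were the scavenger receptor Olr1 (1.71 ± 0.27), the esterifying enzyme Soat1 (0.81 ± 0.14) and Nceh1. Olr1 (1.39 ± 0.27), Nceh1 (0.60 ± 0.17) and the oxysterol enzyme Cyp27a1 (1.84 ± 0.46) rose with the combination. Cyp27a1 fell by 1.45 ± 0.30 and the lipoprotein receptor Vldlr rose by 1.86 ± 0.43 with poly I:C in 4T1 tumours, the list's 2 calls there.

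Fatty acid genes were mixed. Among the 17 tested PPAR, fatty acid and droplet genes 4 rose and 2 fell with poly I:C in MT tumours, where the receptor Pparg averaged 9.28 ± 4.94 CPM against 2.05 ± 0.752 CPM in controls (2.20 ± 0.49, adjusted p = 0.00855). Angptl4, an inhibitor of lipoprotein lipase, rose by 1.46 ± 0.39 with the combination and 1.85 ± 0.40 with poly I:C, and the droplet coat Plin3 fell by 0.79 ± 0.22 and 0.91 ± 0.22. Acsl4, which activates polyunsaturated fatty acids, fell by 2.42 ± 0.62 with the combination (175 ± 65.2 CPM, against 937 ± 464 CPM in controls). In 4T1 tumours given poly I:C 2 of 18 rose, Hilpda (1.76 ± 0.44) and Plin2, both proteins of lipid droplets, and 2 fell, the triglyceride lipase Pnpla2 (-0.80 ± 0.14) and the fatty acid transporter Slc27a1 (-0.42).

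Partners of osteopontin and galectin-3 rose for 5 of 14 genes with poly I:C in MT tumours, among them the efferocytosis receptor Mertk (2.02 ± 0.31), the integrin Itga5 (1.26 ± 0.30) and Mmp9 (1.34 ± 0.32), a protease that also rose with the combination (1.60 ± 0.32). In 4T1 tumours given poly I:C Itga5 (1.21 ± 0.21) and Itgav (0.59 ± 0.15) rose and Itgb5 fell (-0.78 ± 0.17). Lysosomal and MITF/TFE genes rose for 7 of 15 and fell for 1 in MT tumours with poly I:C, with the factors Tfec at 2.27 ± 0.29 and Mitf at 0.93 ± 0.18 and the protease Ctsb at 0.86 ± 0.17. Tfec (1.97 ± 0.29) and Atp6v0d2 rose with the combination, and none of the 15 was called in 4T1 tumours. Of 13 tetraspanins and partners, relatives of Cd9, 1 fell in each model with poly I:C, the Cd9 partner Igsf8 in MT (-1.47 ± 0.48) and Cd81 in 4T1 tumours (-0.30 ± 0.07), beside 11.1% of all genes lower in MT and 3.06% in 4T1 tumours, so these single genes are no result about the list.

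To set genes side by side, levels were divided by the merged length of all annotated exons, which can exceed that of any transcript. For Fabp5 this length was 3567 bases, against 987 in its longest coding transcript, so ranks between members are approximate. On this scale Spp1 led in all 4 groups of 4T1 tumours. Its mean was 4459 CPM per kb with the combination, 3680 with poly I:C, 4684 with phenformin and 4249 in controls. Apoe was second in each of these groups (384 to 940 CPM per kb). In MT tumours Apoe led with the combination (404 CPM per kb, against 357 for Spp1) and with poly I:C (474, against 458), and Spp1 led in MT phenformin (855) and MT controls (1150). Within each of the poly I:C and combination groups of MT the SDs of Apoe and Spp1 exceed the gap between them. Gpnmb was the lowest member in MT controls, at 0.177 CPM per kb.

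The members did not vary as 1 block among themselves. As deviations from the group mean of log2 CPM over the 31 libraries, Lgals3 and Cd9 had a Pearson r of 0.85, Cd36 and Abca1 0.74, and Apoe had 0.72 with each of Abca1 and Abcg1. Spp1 ran against Abcg1 (-0.66), and Fabp5 against Cd9 (-0.60) and Lgals3 (-0.57). Among 16317 genes with a mean of at least 1 CPM, those most like each member by this measure were B3galt2 (0.918) and Pparg (0.911) for Cd36, Slc9a9 (0.898) and Spi1 (0.880) for Apoe, and Hexa (0.875) and Dnm1 (0.863) for Trem2. Abcg1 lay closest to Gm14085 (0.943) and Cd97 (0.934), Abca1 to Tns1 (0.885) and Fam43a (0.863), and Spp1 to Mpzl1 (0.904) and Fgfrl1 (0.898). Lgals3 lay closest to Foxf2 (0.957) and Ptges (0.929), and Cd9 to Rnf141 (0.964) and Steap2 (0.960). For Fabp5 the 2 closest were its own processed pseudogenes Gm6166 (0.982) and Gm14328 (0.969), and for Gpnmb the values were lower, D030056L22Rik (0.770) and Mmp16 (0.750). The libraries share depth and tissue makeup, and the division of the MT libraries enters these values. Over the 25 libraries left without the 6 with high Sox10, r was 0.929 for Cd36 with Pparg, 0.881 for Apoe with Spi1 and 0.897 for Trem2 with Hexa. Other pairs were lower there than over all libraries, with 0.752 for Apoe with Slc9a9, 0.762 for Abca1 with Fam43a, 0.747 for Fabp5 with Gm14328 and 0.623 for Gpnmb with Mmp16.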

How the data were processed

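The authors deposited whole-number gene counts, not normalized, for 31 poly(A) libraries. Per the submitters' processing notes the authors used Trimmomatic 0.32.48, STAR 2.3.0 and featureCounts 1.4.4 with the mm10 (GRCm38) genome; the annotation release and strand setting are not given in the sources used here. Coordinates and gene types come from the GENCODE annotation of GRCm38.

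Genes were tested with edgeR 4.0.16 in R 4.3.3: filterByExpr (minimum count 10, minimum total 15), TMM factors, quasi-likelihood F-tests in 1 fit per model (17445 genes for 4T1, 17857 for MT) and 1 joint fit (18956), with Benjamini-Hochberg adjustment over all genes tested and calls at an adjusted p under 0.05. The SE is the size of the log2 fold change divided by the square root of F. CPM use TMM-scaled library sizes over all libraries. Settings were tested on simulated data.

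The members and lists were chosen with earlier results of these data known. Named genes are the members, up to 3 called genes with the smallest p of each of 8 lists in each comparison within a model, and the 2 genes most like each member. Genes named beyond that (Adam10, Adam17, Slc27a1, and Tyrobp for poly I:C) were chosen after their values were seen. The 14 macrophage markers included Adgre1, Csf1r, C1qa, Cd68 and Mertk. Marker lists with no call in any comparison of arms within a model were those of epithelial, T and B or plasma cells.

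The labels do not say which libraries are separate animals, so p-values measure the spread between these libraries. Alternatives were DESeq2 1.42.0, its size factors, other filters, the replicate number as a block, the macrophage markers as a covariate, only the groups compared, and leaving out libraries; the Krt5 to Sox10 ratio in the model was chosen after seeing the data.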

Additional observations from a re-analysis of the deposited data

Results flagged for a closer look

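Within groups of 4 libraries, 6 of 70 sets of member values held a library far from the other 3. The limit used gives about 1 in 20 only for independent sets of normally distributed values. These CPM were not logged and the sets share libraries, so that rate cannot be set against the 6. MT control replicate 4 was high for Abca1 (41.7 CPM), Lgals3 (348 CPM) and Cd9 (587 CPM). MT phenformin replicate 4 was high for Apoe (966 CPM), 4T1 control replicate 2 for Spp1 (10353 CPM), and 4T1 poly I:C replicate 4 for Cd9 (405 CPM, against 338 to 347 CPM in the other 3).

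The log2 response to poly I:C differed between models by the test of the difference itself for Gpnmb (-4.21), Apoe (-3.18), Cd36 (-2.78), Trem2 (-2.09) and Abca1 (-1.74), all as 4T1 minus MT. The response to the combination differed for Apoe (-2.28).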

How the results depend on the processing

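Counts of members called are given here where they moved by over 1.5 times. The shares of all genes called in these refits are not given in this section. The counts therefore describe dependence on settings and say nothing particular to the members. DESeq2 called 2 for 4T1 poly I:C (1 by edgeR), 2 for the 4T1 combination against poly I:C (0), 7 for the MT combination against control (4), 1 for the MT interaction (0) and 6 for the difference in combination response (1). With macrophage markers as a covariate the count was 0 for 4T1 poly I:C, MT poly I:C and the MT combination, and Trem2 reversed to -1.25 for MT poly I:C. For the MT combination it was 2 with no filter on low counts and 1 in a fit of only the 2 groups. Without libraries with Acta1 above 10 CPM it was 0 for 4T1 poly I:C. Without MT libraries with Sox10 above 10 CPM it was 0 for MT poly I:C and the MT combination, and Fabp5 reversed to 0.74 for poly I:C, both resting on the 1 control left, whose spread is assumed to be that of the other groups; without both sets it was 1 for the difference in poly I:C response and 0 for that in combination response. With the log2 Krt5 to Sox10 ratio in the model, chosen after seeing the data, it was 3 for MT poly I:C and 0 for the MT combination, and Fabp5 reversed to 0.75. The cause of these shifts was not tested.

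Leaving out 1 library gave 1 to 2 for 4T1 poly I:C, 0 to 1 for the 4T1 combination against poly I:C, 4 to 7 for MT poly I:C, 0 to 8 for the MT combination (8 without MT control replicate 4, 1 without MT combination replicate 1 and 0 in the other 6 fits), 0 to 1 for the MT combination against phenformin (1, Apoe, without MT phenformin replicate 4), 6 to 7 for control tumours of 4T1 against MT, 5 to 9 for the difference in poly I:C response and 1 to 7 for that in combination response. In the other comparisons it gave 0.

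Replicate numbers are not stated to pair the libraries. Deviations of same-numbered libraries of different arms correlated at a mean r of -0.07 in 4T1 and 0.065 in MT. Differently numbered libraries had means of 0.03 and 0. Same-numbered pairs in MT ranged from -0.831 to 0.809, so these means cannot exclude a pairing. With the replicate block the difference in combination response gave 2 members, and no other count moved by over 1.5 times. Low counts limit the fold changes of Gpnmb in MT tumours, where controls had 0.319 to 2.44 CPM.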
